A study of Mus musculus with 9 samples.

Results

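The 10 genes described here belong to the clearance of dead cells and to the phagocytes and lysosomes that carry it out. They are Gas6, Pros1, Mertk, Axl, Cd36, Trem2, Gpnmb, Lgals3, Cd68 and Ctsk, and they are 10 of the 29410 genes tested and of the 37316 genes named on the array. The group was chosen by the measured rise of Gpnmb, which was among the largest of all genes on both days after ionizing radiation (IR), with the other members set beside it. Their changes against Ctrl are therefore given as a description. Calls in limma against Ctrl are counted beside those of all genes, but nothing is read from these counts. The difference between 3 and 1 days post IR (dpi) was not used in that choice and was tested, although it shares its arrays with the comparisons that were.

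The study asked how mature megakaryocytes (mMKs), the bone marrow cells that shed platelets, respond to radiation injury. Male mice received 5 Gy of γ-rays to the whole body and the control mice (Ctrl) were sham-irradiated. mMKs were enriched from bone marrow by positive selection for CD41 and then for CD42d, and their RNA was hybridised at 1 dpi, at 3 dpi and without IR, with 3 arrays in each group from independent experiments with different donors. The methods assign wild-type C57BL/6 mice to control and IR groups and state no age for the mice of these arrays, and no transgene is named for any group.

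Dying cells expose phosphatidylserine, and the secreted proteins Gas6 and protein S (the product of Pros1) bridge it to the TAM receptor tyrosine kinases Tyro3, Axl and Mertk on the cell that engulfs them. CD36 and TREM2 bind lipids and lipoproteins, and the engulfed material is broken down in lysosomes, where CD68 and cathepsin K (Ctsk) are found. Gpnmb is a transmembrane glycoprotein of lysosomes, melanosomes and the surface of macrophages and osteoclasts, and galectin-3 (Lgals3) is a lectin that marks damaged lysosomes. Platelets, the product of the cells selected here, carry CD36 on their surface and protein S in their α-granules, and they respond to Gas6.

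Levels are given as scaled log2 values, the log2 intensity of a probe minus the 75th percentile of its array, so a level of 0 lies at that percentile. This level depends on the probe and is not compared between genes. Values are those of the brightest probe of a gene unless another is named. A gene was called when its adjusted p in limma was under 0.05 and it differed at least 2-fold. Ctrl replicate 1 was alone on slide 1 with its own scan, and the other 8 arrays were on slide 2. Spots well above background made up 69.1% of that array, 79.5% and 80.8% of the other Ctrl arrays, 72.3%, 74.8% and 75.6% of the 1-dpi arrays, and 81.6% to 81.8% of the 3-dpi arrays.

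Scaling moved the whole distribution. Over the genes tested, the median log2 fold change was 0.25 at 1 dpi and 0.11 at 3 dpi against Ctrl, and -0.11 at 3 against 1 dpi. Of the genes called at 1 dpi 81.2% were higher, and this share was 45.0% after scaling to the array median, 56.3% after quantile normalization and 49.8% in the deposited log2 table. The shares at 3 dpi were 79.4%, 70.0%, 71.5% and 66.8% in the same order, and those for 3 against 1 dpi were 45.0%, 68.2%, 62.9% and 62.6%. The members kept their direction under each of these scalings, as measured and relative to the median of all genes.

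All 10 members had a probe that passed the filter on dim signals. They have 16 probes, of which 15 passed and lay well above background on all 9 arrays. At 1 dpi 5 members were called higher and none lower, beside 12.3% of all genes called higher and 2.86% called lower. At 3 dpi 9 were called higher, all but Lgals3, beside 6.98% higher and 1.82% lower of all genes. The 3 arrays of 1 dpi lay above the 3 Ctrl arrays in 9 members, beside 42.4% of all genes, and those of 3 dpi in 10 members, beside 26.2%. These counts follow from the choice of the members and nothing is read from them. The median log2 fold change of the members was 1.16 at 1 dpi and 2.01 at 3 dpi, or 0.91 and 1.89 relative to the median of all genes.

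On their brightest probes the members did not share one time course. Gpnmb, Gas6, Cd36 and Trem2 stood far above Ctrl at 1 dpi already, whereas Mertk and Ctsk stood little above it until 3 dpi. Axl was below Ctrl at 1 dpi and above it at 3 dpi, and Lgals3 was higher at 1 than at 3 dpi. The pattern of Axl at 1 dpi was not seen on its second probe. That of Lgals3 between the days was much smaller on the second probe, at -0.07 as measured and 0.04 relative to the median of all genes.

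**Figure D1:**
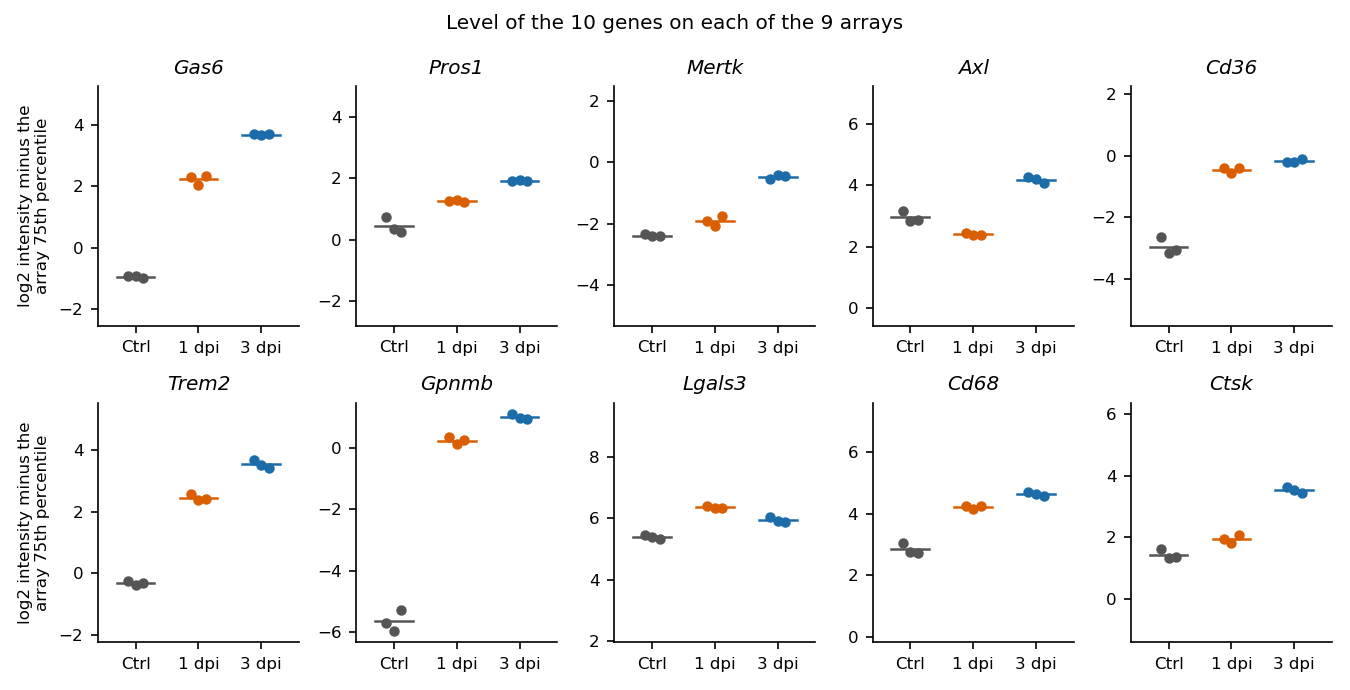
Scaled log2 level (log2 intensity minus the 75th percentile of the array) of the 10 genes on each of the 9 arrays. Each panel is a gene, each point an array and each line a group mean, and the Gpnmb arrays rise from between -5.95 and -5.28 in Ctrl to between 0.95 and 1.11 at 3 dpi, whereas the Axl arrays of 1 dpi lie below those of Ctrl.

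Gas6 encodes the ligand shared by all TAM receptors, and its probe (A_51_P172054) lies at chr8:13465444-13465503 on the minus strand of mm9. Its scaled log2 level was -0.91, -0.93 and -0.98 on the Ctrl arrays, 2.30, 2.04 and 2.31 at 1 dpi and 3.68, 3.65 and 3.69 at 3 dpi. The groups stood in 3 separate steps with no overlap. Against Ctrl its log2 fold change was 3.16 at 1 dpi and 4.61 at 3 dpi, each with a standard error (SE) of 0.08.

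Pros1 encodes protein S, the vitamin K-dependent anticoagulant that also bridges dying cells to Mertk and Tyro3. Its scaled log2 level (probe A_55_P2801083, chr16:62929001-62929060, plus strand) was 0.72, 0.33 and 0.26 in Ctrl, 1.25, 1.27 and 1.21 at 1 dpi and 1.90, 1.93 and 1.90 at 3 dpi. Ctrl replicate 1, the array on slide 1, was the highest of the Ctrl arrays and still below every irradiated array. On the log2 scale Pros1 was above Ctrl by 0.81 at 1 dpi and by 1.47 at 3 dpi (SE 0.12), and a second probe gave 1.03 and 1.59. With the first probe the 1-dpi value was 0.46 after scaling to the array median. Another probe was well above background on 2 arrays, both of 3 dpi, and was not used.

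Mertk is the TAM receptor through which macrophages engulf apoptotic cells. Its probe (A_51_P366138, chr2:128627867-128627926, plus strand) read -2.34, -2.41 and -2.42 in Ctrl, -1.90, -2.09 and -1.75 at 1 dpi and -0.55, -0.43 and -0.46 at 3 dpi. The 1-dpi arrays lay just above Ctrl and the 3-dpi arrays well above both. Mertk had a log2 fold change of 0.48 at 1 dpi and 1.91 at 3 dpi (SE 0.09), and the first of these was 0.13 after scaling to the array median.

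Axl, the TAM receptor that binds Gas6 most tightly, went the other way at 1 dpi. Its probe (A_66_P119852, chr7:26542335-26542394, minus strand) read 3.16, 2.84 and 2.88 in Ctrl, 2.45, 2.39 and 2.38 at 1 dpi and 4.27, 4.19 and 4.06 at 3 dpi. All 1-dpi arrays were below all Ctrl arrays, and all 3-dpi arrays were above them. This gave a log2 fold change of -0.55 at 1 dpi and 1.22 at 3 dpi (SE 0.10). A dimmer second probe gave 0.06 at 1 dpi, so the lower level at 1 dpi was seen with the first probe alone.

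Tyro3, the TAM receptor outside the group, was not called on either day in limma. Its log2 fold change against Ctrl was 0.82 at 1 dpi (adjusted p = 0.00095) and 0.46 at 3 dpi (adjusted p = 0.0208), both under 2-fold. Its arrays read -1.88, -1.94 and -2.31 at 1 dpi against -2.96, -2.83 and -2.80 in Ctrl, and its other probe gave -0.08 and 0.27.

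Cd36 encodes a scavenger receptor for oxidised lipoproteins, thrombospondin and long-chain fatty acids. Its probe (A_51_P375146, chr5:17288600-17288659, minus strand) read -2.63, -3.17 and -3.07 in Ctrl, -0.41, -0.55 and -0.41 at 1 dpi and -0.22, -0.22 and -0.10 at 3 dpi. The irradiated arrays of both days lay close together and far above Ctrl. For Cd36 the log2 fold change was 2.50 at 1 dpi and 2.78 at 3 dpi (SE 0.14).

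Trem2 encodes a lipid receptor of macrophages, microglia and osteoclasts that signals through the adaptor Tyrobp. Its probe (A_55_P1962937, chr17:48491537-48491596, plus strand) read -0.24, -0.38 and -0.32 in Ctrl, 2.57, 2.39 and 2.41 at 1 dpi and 3.68, 3.53 and 3.42 at 3 dpi. The groups did not overlap and followed the same order as for Gas6. Trem2 thus had a log2 fold change of 2.77 at 1 dpi and 3.86 at 3 dpi (SE 0.09). Tyrobp itself was not called, with 0.19 at 1 dpi (adjusted p = 0.0844) and 0.14 at 3 dpi (adjusted p = 0.247) in limma.

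Gpnmb had the second largest rise of all genes tested at 1 dpi (rank 2) and the largest at 3 dpi (rank 1) with the scaling used here. Its probe (A_51_P438967, chr6:49006386-49006445, plus strand) read -5.69, -5.95 and -5.28 in Ctrl, 0.34, 0.13 and 0.25 at 1 dpi and 1.11, 0.97 and 0.95 at 3 dpi. In Ctrl it was near the bottom of the range and on every irradiated array above the 75th percentile. The log2 fold change was 5.88 at 1 dpi and 6.65 at 3 dpi (SE 0.16), or 59.0-fold and 100.5-fold. The Ctrl mean was only 0.93 above the lowest signal that counted as well above background, so the size of the fold depends on how background is treated, and it was 3.92 and 4.65 after normexp correction with quantile normalization. Its rank depends on this too, since Ccl7 then stood higher on both days (4.68 and 4.92) and Phlda3 at 1 dpi (5.01).

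Lgals3 encodes galectin-3. Its probe (A_55_P2171116, chr14:48005414-48005473, plus strand) read 5.44, 5.38 and 5.33 in Ctrl, 6.39, 6.34 and 6.31 at 1 dpi and 6.03, 5.89 and 5.88 at 3 dpi. The 1-dpi arrays were the highest and the 3-dpi arrays lay between them and Ctrl. The log2 fold change was 0.96 at 1 dpi and 0.55 at 3 dpi (SE 0.07), and a second probe, printed on 10 spots, gave 0.64 and 0.57. On the first probe the 1-dpi value was 0.61 after scaling to the array median and 0.53 after quantile normalization.

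Cd68 encodes a heavily glycosylated membrane protein of late endosomes and lysosomes that is used as a macrophage marker. Its probe (A_55_P1961943, chr11:69477775-69477834, minus strand) read 3.06, 2.77 and 2.74 in Ctrl, 4.24, 4.14 and 4.25 at 1 dpi and 4.70, 4.66 and 4.59 at 3 dpi. Most of the distance from Ctrl was there at 1 dpi, and the groups did not overlap. Cd68 was above Ctrl by a log2 fold change of 1.36 at 1 dpi and of 1.80 at 3 dpi (SE 0.09), and the other probes gave 1.74 and 1.69 at 1 dpi and 2.01 and 2.04 at 3 dpi.

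Ctsk encodes cathepsin K, the lysosomal protease with which osteoclasts degrade bone collagen. Its probe (A_55_P1961335, chr3:95313165-95313224, plus strand) read 1.63, 1.32 and 1.35 in Ctrl, 1.94, 1.81 and 2.07 at 1 dpi and 3.64, 3.55 and 3.44 at 3 dpi. The 1-dpi arrays lay just above Ctrl, as for Mertk. The log2 fold change was 0.51 at 1 dpi and 2.11 at 3 dpi (SE 0.11), and the first was 0.16 after scaling to the array median.

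**Figure D2:**
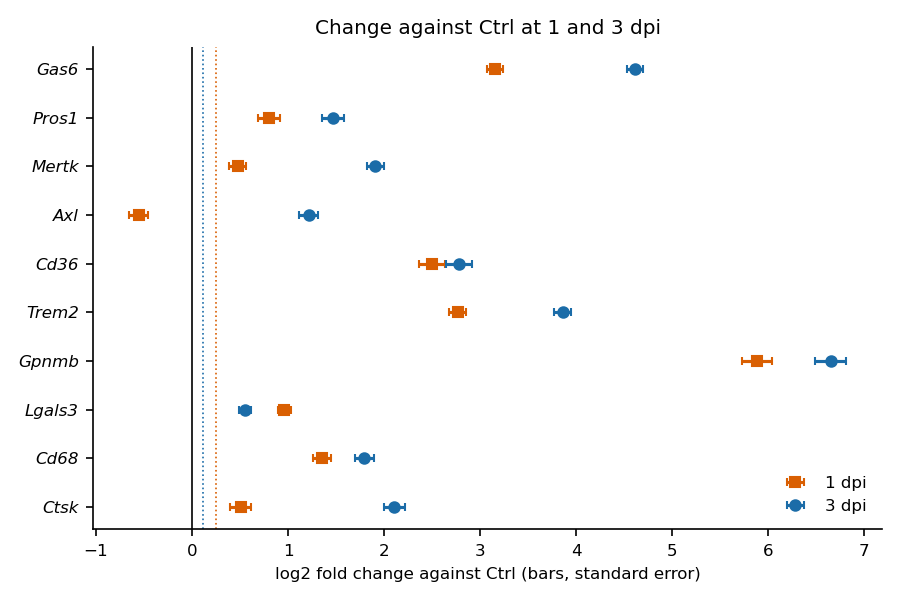
Log2 fold change against Ctrl of the 10 genes at 1 and 3 dpi, with bars of 1 standard error. Gpnmb lies at 5.88 and 6.65, far to the right of the other genes, and Axl lies at -0.55 at 1 dpi and 1.22 at 3 dpi.

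With slide as a block in the fit, which compares the irradiated arrays with Ctrl replicates 2 and 3 of the same slide, the direction was kept for each member on both days. Gpnmb was then 5.86 and 6.63 above Ctrl on the log2 scale at 1 and 3 dpi, Gas6 3.17 and 4.63, and Trem2 2.80 and 3.89. Cd36 was 2.66 and 2.94, Cd68 1.46 and 1.90, and Pros1 0.95 and 1.61. Axl was -0.45 and 1.31, Mertk 0.50 and 1.93, Ctsk 0.61 and 2.21, and Lgals3 0.99 and 0.58.

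The comparison of 3 with 1 dpi asks which members went on changing after the first day, and it does not use the Ctrl arrays as a reference. Axl, Ctsk, Gas6, Mertk and Trem2 rose at least 2-fold, which is 5 of the 10 members beside 3.96% of all genes called higher. None was called lower, beside 4.83% of all genes. The 3 arrays of 3 dpi lay above those of 1 dpi in 9 members, beside 27% of all genes, and below them in Lgals3. The median log2 difference of the members was 0.93 beside -0.11 for all genes. The members were chosen with earlier results of these data known, and the 3-dpi arrays entered that choice. These counts are therefore not independent of it. An exact two-sided permutation test of 3 against 3 arrays cannot give a p below 0.10, and the calls are those of limma.

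Axl had the largest difference between the days on its brightest probe, with a log2 fold change of 1.77 (SE 0.10, adjusted p = 2.07e-05 in limma). Its dimmer probe gave 1.15 (adjusted p over probes = 0.000161 in limma), and with the mean of both probes Axl differed by 1.46, less than Ctsk. Ctsk followed with 1.60 (95% confidence interval (CI) 1.34 to 1.86, adjusted p = 4.92e-05). Gas6 differed by 1.46 (CI 1.26 to 1.65, adjusted p = 2.13e-05) and Mertk by 1.43 (CI 1.22 to 1.64, adjusted p = 3.49e-05). Trem2 was the smallest of the called differences, at 1.09 (CI 0.89 to 1.29, adjusted p = 9.31e-05). In each of these 5 genes all arrays of 3 dpi were above all arrays of 1 dpi. Neighbours in this order have overlapping intervals, and their differences from each other were not tested.

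The other 5 members differed by less than 2-fold between the days. With no minimum fold 9 members had an adjusted p under 0.05 in limma, beside 44.6% of all genes. Gpnmb was 0.77 higher on the log2 scale at 3 dpi (CI 0.39 to 1.14, adjusted p = 0.00643 in limma), so 88.5% of its 3-dpi change against Ctrl was present at 1 dpi. Pros1 differed by 0.67 (CI 0.40 to 0.93, adjusted p = 0.00275) and by 0.56 on its second probe. Cd68 differed by 0.44 (CI 0.22 to 0.66, adjusted p = 0.00738), with an adjusted p of 0.0946 in the deposited log2 table. Its other probes gave 0.27 (adjusted p over probes = 0.0689 in limma) and 0.35 (adjusted p over probes = 0.138). Cd36 differed by 0.28 with a CI of -0.04 to 0.60 that includes 0 (adjusted p = 0.139), and its adjusted p was 0.0101 with slide as a block, 0.018 with only the 2 groups in the fit and 0.0269 in the methods' t-test.

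Lgals3 was the 1 member lower at 3 than at 1 dpi, by a log2 fold change of -0.41 (CI -0.56 to -0.26, adjusted p = 0.00198 in limma). The difference was -0.07 on its second probe (adjusted p over probes = 0.321) and -0.06 after quantile normalization (adjusted p = 0.469). The direction was thus kept as measured, but relative to the median of all genes the second probe was at 0.04. The difference was small and its adjusted p not under 0.05 with every probe or scaling. Over all alternatives tried the adjusted p of this gene ran from 0.00108 to 0.58.

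**Figure D3:**
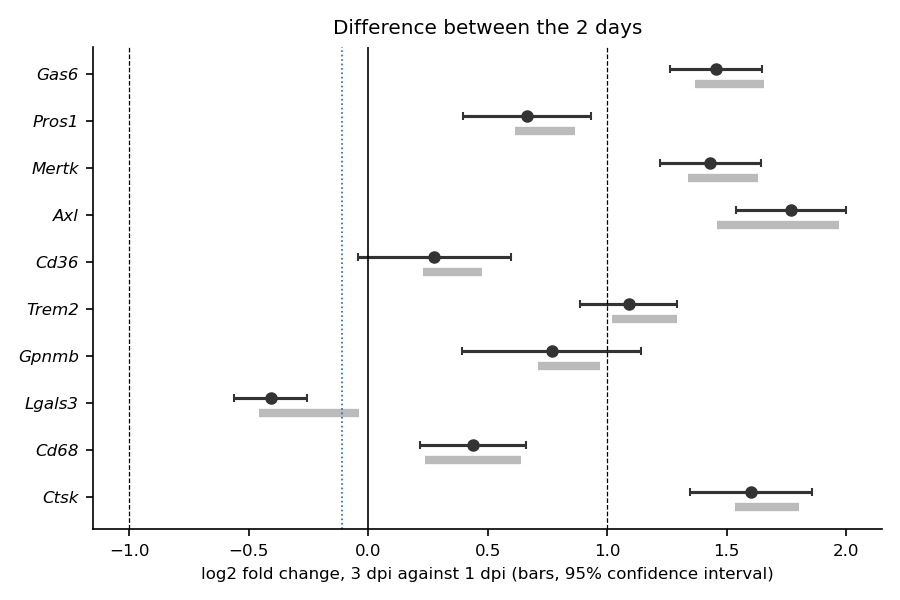
Log2 fold change of 3 dpi against 1 dpi for the 10 genes, with bars of the 95% confidence interval. Axl, Ctsk, Gas6, Mertk and Trem2 lie above a log2 fold change of 1, Cd36 has an interval that includes 0, and Lgals3 lies at -0.41.

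Likeness between genes was measured as the root mean square difference of their scaled log2 values over the 9 arrays, each gene taken from its own Ctrl mean, so genes are alike when both size and timing of their change match. Among members Gas6 was nearest to Gpnmb with a difference of 1.97 and Trem2 came next with 2.42. The size of these distances depends on how background is treated. After normexp with quantile normalization the log2 fold change at 1 and 3 dpi was 3.92 and 4.65 for Gpnmb and 3.03 and 4.45 for Gas6. Mertk and Ctsk were the closest pair at 0.15, Cd68 and Pros1 differed by 0.37, and Gas6 and Trem2 by 0.50. The nearest member to Pros1 was its receptor Mertk (0.34), that to Cd36 was Trem2 (0.66) and that to Axl was Mertk (0.73).

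Among the 24006 other genes well above background on every array, the nearest to Gpnmb was Ccl7, at 0.74. This order was computed with the scaling used here alone and depends on the fold of Gpnmb. Ccl7 and the next, Ccl12 at 1.33, encode chemokines that attract monocytes. They were followed by Cyp1b1 (1.37), a cytochrome P450 monooxygenase, by Phlda3 (1.44), a p53 target that restrains Akt, and by Col8a1 (1.45), a chain of type VIII collagen. The log2 fold change at 1 and 3 dpi was 5.27 and 5.57 for Ccl7, 4.65 and 4.72 for Ccl12, and 3.96 and 5.30 for Cyp1b1, which was 2.11 and 3.40 after normexp with quantile normalization. Phlda3 had its higher level at 1 dpi, with 5.34 against 4.23 at 3 dpi, whereas Col8a1 had 4.29 and 4.75.

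The rest of the clearance pathway was taken from lists without the members, some of which share genes, and tested in all comparisons. Of 20 tested receptors and bridging proteins for phosphatidylserine and other eat-me signals, 6 rose and 1 fell at 1 dpi, 7 rose at 3 dpi, and 3 rose and 1 fell between the days. Their median log2 fold change was 0.52 on both days, beside 0.25 and 0.11 for all genes. Stab1, a scavenger receptor that binds phosphatidylserine, had the largest change, 3.65 at 1 dpi (adjusted p = 2.35e-07) and 4.03 at 3 dpi (adjusted p = 1.75e-07, limma). C1qb and C1qc, chains of complement C1q that coats dying cells, rose by 2.51 and 2.39 at 3 dpi, and C1qa rose by 2.37. A second probe of C1qc gave only 0.42 at 3 dpi.

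Timd4, a phosphatidylserine receptor of resident macrophages, moved in the opposite direction at 1 dpi. Its scaled log2 level was -2.73, -3.01 and -2.98 in Ctrl, -5.16, -5.48 and -5.65 at 1 dpi and -2.45, -2.30 and -2.39 at 3 dpi. The 1-dpi arrays were far below the other groups. It fell by 2.52 on the log2 scale at 1 dpi (adjusted p = 7.03e-06) and rose by 3.05 from 1 to 3 dpi (adjusted p = 9.7e-06, limma), while its 3-dpi value was 0.53 from Ctrl and not called. Its 1-dpi signal was near background, and after normexp with quantile normalization these differences were -1.37 and 1.72, still called. Cd300lf, another lipid receptor of myeloid cells, rose by 2.68 at 1 dpi and differed by -1.85 on the log2 scale between 3 and 1 dpi, a call that was lost when the mean of its probes was used. Its other probe gave 0.45 at 1 dpi. Mfge8, which bridges phosphatidylserine to integrins, was not called, with 0.17 at 1 dpi and -0.25 at 3 dpi.

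Of 26 genes of engulfment signalling and phagosome handling tested, 2 rose at 1 dpi, 3 rose and 1 fell at 3 dpi, and 2 rose and 1 fell between the days. Of all genes 12.3%, 6.98% and 3.96% were called higher and 2.86%, 1.82% and 4.83% lower. The list medians were 0.15, 0.16 and 0.18, beside 0.25, 0.11 and -0.11 for all genes. At an unadjusted p under 0.05 in limma there were 16, 17 and 17 genes of the list. The pair that rose between the days, Abca1 (1.67) and Pparg (1.04), had -0.14 and -0.43 on their other probes. Those that rose at 3 dpi are known for the handling of engulfed lipid, but no theme is read from 3 of 26 genes. The cholesterol exporter Abca1 rose by 2.08 (adjusted p = 4.64e-07), its activator Nr1h3 (LXRα) by 1.84 (adjusted p = 1.9e-06) and the lipid-sensing receptor Pparg by 1.51 (adjusted p = 4.14e-05, limma). Nr1h3 (1.09) and Elmo2 (1.31), part of the Rac activator, were called at 1 dpi but not after scaling to the array median (0.75 and 0.96). Rab17 was lower by a log2 fold change of -1.37 at 3 dpi, but by -0.30 on its other probe.

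Find-me and do-not-eat-me signals gave 1 gene higher and 1 lower of 18 on each day and none between the days, where 11 genes had an unadjusted p under 0.05 in limma but less than a 2-fold difference. Cx3cl1, the chemokine that draws phagocytes to dying cells, rose by 2.23 at 1 dpi (adjusted p = 2.15e-05) and 1.88 at 3 dpi (adjusted p = 5.45e-05), whereas its second probe gave 0.45 and 0.32, under 2-fold. After normexp with quantile normalization it was 1.30 and 1.14. Sphk1, which makes the find-me lipid sphingosine-1-phosphate, fell by 2.59 and 1.62 (adjusted p = 1.19e-06 and 8.7e-06). The list medians were 0.18, 0.05 and -0.06.

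The sheddases of TAM receptors and Gpnmb, with the enzymes of the vitamin K-dependent carboxylation that Gas6 and protein S require, held 9 genes. Of these Adam9 alone was called, and none at 1 dpi, where 6 had an unadjusted p under 0.05 in limma. It read 0.61, 0.50 and 0.51 in Ctrl, 0.24, 0.34 and 0.39 at 1 dpi and 1.68, 1.72 and 1.72 at 3 dpi. It was thus slightly below Ctrl at 1 dpi and above it at 3 dpi, the order also seen for Axl. It rose by 1.17 at 3 dpi against Ctrl (adjusted p = 7.69e-06) and by 1.39 from 1 to 3 dpi (adjusted p = 1.04e-05, limma). The main sheddases Adam10 (-0.39 and -0.05 at 1 and 3 dpi) and Adam17 (0.18 and 0.06) were not called. The other probe of Adam10 gave 0.75 at 1 dpi. The probes of Adam17 ran from -0.35 to 0.95 at 1 dpi and from -0.63 to 0.11 at 3 dpi. The list medians were 0.08, 0.07 and 0.10.

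Of 44 lysosomal genes tested, 7 rose at 1 dpi, 12 at 3 dpi and 3 between the days, beside 12.3%, 6.98% and 3.96% of all genes. None was called lower, 30, 33 and 32 having an unadjusted p under 0.05 in limma in either direction, with medians of 0.21, 0.46 and 0.27 beside 0.25, 0.11 and -0.11 for all genes. The asparagine protease gene Lgmn rose by 2.07 at 1 dpi and 2.75 at 3 dpi (adjusted p = 6.11e-07 and 2.03e-07). Atp6v0d2, a subunit of the proton pump that acidifies lysosomes, rose by 1.84 and 3.27 (adjusted p = 9.87e-06 and 5.92e-07), the first being 1.15 after normexp with quantile normalization. Ctsb rose by 1.46 at 1 dpi and Ctsc by 1.99 at 3 dpi, both encoding cathepsins. From 1 to 3 dpi Psap, the precursor of the saposins that help to degrade sphingolipids, rose by 1.27 (adjusted p = 1.59e-05, limma), and Atp6v0d2 by 1.43. The rise of Ctsc between the days, 1.47, was -0.54 on another of its probes and reversed to -0.46 in the deposited log2 table, where Pparg also went from 1.04 to -0.18.

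The MiT/TFE transcription factors, which drive lysosomal genes and Gpnmb in other cells, gave no call among 4 genes in limma. At an unadjusted p under 0.05 there were 2 genes at 1 dpi, 3 at 3 dpi and 4 between the days, all under 2-fold on their brightest probes. Mitf was 0.30 above Ctrl at 1 dpi (adjusted p = 0.0788) and 0.91 at 3 dpi (adjusted p = 0.00107), just short of 2-fold. Its arrays read 0.12, -0.23 and -0.37 in Ctrl, 0.01, 0.18 and 0.21 at 1 dpi and 0.79, 0.76 and 0.70 at 3 dpi, so the 3-dpi arrays stood above all others. Over its 4 probes the change ran from 0.30 to 1.00 at 1 dpi and from -0.20 to 0.62 between the days. Tfec was -0.02 and 0.61 from Ctrl, Tfe3 0.25 and 0.44, and Tfeb 0.22 and -0.03. The other probe of Tfe3 gave -0.97 and 0.33, a difference of 1.30 between the days, and that of Tfec -0.81 and -0.16.

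Lipid-associated macrophage genes, many of which depend on Trem2, gave 10 higher and 1 lower of 23 at 1 dpi, 12 and 1 at 3 dpi, and 2 higher between the days. The medians were 0.79, 1.06 and -0.06. Spp1 (osteopontin) rose by 2.66 at 1 dpi (adjusted p = 1.21e-06), and the lipase gene Lpl by 2.24 and 3.13 at 1 and 3 dpi, with its 6 probes ranging from -0.25 to 2.83 and from 0.14 to 3.45. The fatty acid carrier Fabp4 rose by 3.17 at 3 dpi (adjusted p = 2.03e-07) and by 1.44 from 1 to 3 dpi. Cd5l, a secreted macrophage protein, rose by 1.22 between the days (adjusted p = 2.33e-05, limma).

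Other scavenger receptors, relatives in function of Cd36, gave 5 higher and 1 lower of 13 at 1 dpi, 6 higher at 3 dpi and 2 higher between the days, with medians of 0.53, 0.74 and 0.57. Marco rose by 2.96 and 3.87 (adjusted p = 3.37e-06 and 7.77e-07), Scara3 by 2.98 and 3.82, and Msr1 by 3.30 at 3 dpi. Scara3 and Msr1 were dim in Ctrl, and after normexp with quantile normalization Scara3 was 1.41 and 2.21 and Msr1 1.99 at 3 dpi. Cd163, the haemoglobin receptor of resident macrophages, read -1.77, -1.09 and -1.17 in Ctrl, -3.56, -3.44 and -3.22 at 1 dpi and -0.90, -0.55 and -0.34 at 3 dpi. Its 1-dpi arrays were below and its 3-dpi arrays above those of Ctrl. It fell by 2.06 at 1 dpi (adjusted p = 0.000175) and rose by 2.81 from 1 to 3 dpi (adjusted p = 7.42e-05, limma), as Stab2, a hyaluronan receptor of sinusoidal endothelium, rose by 1.53.

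Of 7 other galectin genes tested, counting the galectin-3 binding protein, 2 rose at 1 dpi and none was called at 3 dpi or between the days in limma, where 6 and 4 had an unadjusted p under 0.05. The list medians were 0.77, 0.27 and -0.50. Lgals3bp was 1.58 above Ctrl at 1 dpi (adjusted p = 1.37e-05) and 0.94 at 3 dpi, and Lgals1 was 1.23 (adjusted p = 2.15e-05) and 0.69. The other probe of Lgals3bp gave 0.85 and -0.01. The call of Lgals1 was lost after scaling to the array median (0.88), after quantile normalization (0.86), after normexp (0.86) and in the deposited log2 table (0.85). Both stood highest at 1 dpi, as Lgals3 did, though by little on its second probe.

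The paralogue and binding partners of Gpnmb gave no call among 5 genes on their brightest probes in limma, with 4, 2 and 2 at an unadjusted p under 0.05 at 1 dpi, at 3 dpi and between the days. Pmel, the melanosome protein related to Gpnmb, was 0.31 (adjusted p = 0.0364) and -0.07 from Ctrl at 1 and 3 dpi. Cd44 was -0.20 and -0.02, Sdc4 -0.32 and 0.15, Itgb1 0.29 and 0.32, and Egfr 0.75 and 0.96 with an SE of 0.32. The other probes of Itgb1 reached -0.87 at 3 dpi and those of Cd44 0.55 at 1 dpi. Egfr was higher on its other probes, up to 1.68 at 1 dpi and 3.45 at 3 dpi, and with the mean of its 3 probes it was called higher at 3 dpi, by 2.58 (adjusted p = 0.000869 in limma).

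**Figure D4:**
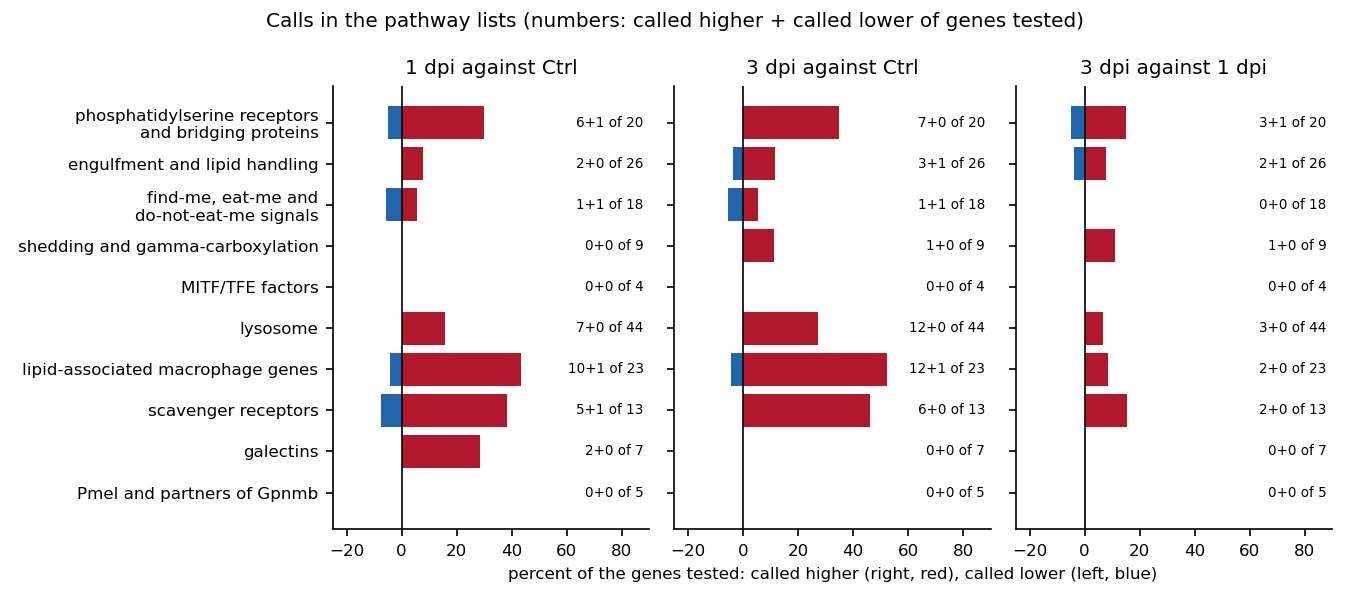
Percent of the tested genes of each pathway list called higher (right) and called lower (left) in limma in the 3 comparisons, with the counts beside each bar. Lysosomal genes go from 7 of 44 called higher at 1 dpi to 12 of 44 at 3 dpi, and the MiT/TFE factors and the partners of Gpnmb have no call on their brightest probes.

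Several members are known from macrophages and osteoclasts as well as from platelets, so markers of the cell types in the preparation were measured on the same arrays. Of 17 megakaryocyte markers none was called in any comparison in limma, and 10, 9 and 11 had an unadjusted p under 0.05 with less than a 2-fold difference. The mean scaled log2 level of the list was 1.37 in Ctrl, 1.34 at 1 dpi and 1.59 at 3 dpi. The platelet chemokine gene Pf4 read 6.05, 6.04 and 6.04 in Ctrl, 6.25, 6.07 and 6.10 at 1 dpi and 6.07, 6.05 and 6.05 at 3 dpi. Itga2b (CD41) was 0.69 (adjusted p = 0.000116) and -0.03 from Ctrl at 1 and 3 dpi, and Gp5 (CD42d) was -0.54 and -0.28. These defining markers were well above background on all 9 arrays, which gives no measure of purity.

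Of 17 macrophage markers 8 rose and 1 fell at 1 dpi, 15 rose at 3 dpi and 8 rose between the days, with median log2 fold changes of 0.61, 2.19 and 1.00. The log2 of the summed scaled level of the list was 5.92, 5.77 and 5.72 on the Ctrl arrays, 6.46, 6.38 and 6.44 at 1 dpi and 7.40, 7.35 and 7.32 at 3 dpi. The list stood in 3 steps without overlap, in the order of Gas6 and Trem2, as did the osteoclast, stromal, endothelial and adipocyte lists. Within the macrophage list Adgre1 (F4/80) was -0.20 (adjusted p = 0.0393) and 0.50 (adjusted p = 0.00122) from Ctrl, and C1qa 0.39 and 2.37. The second probe of Adgre1 went the other way on both days, with 0.19 and -0.14. No defining macrophage marker was at background in Ctrl. The part of these cells in the levels of the members was not tested, and more cells of a type cannot be told apart from more RNA per cell in bulk samples.

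Osteoclast markers gave 6 higher and 1 lower of 14 on each day and 3 higher between the days. The log2 summed level was 5.92, 5.82 and 5.83 in Ctrl, 6.11, 6.13 and 6.12 at 1 dpi and 6.46, 6.38 and 6.32 at 3 dpi, and its brightest probe was that of Acp5. Acp5 was 0.10 and 1.11 from Ctrl at 1 and 3 dpi (adjusted p = 0.39 and 1e-04 in limma) and was just under 2-fold at 3 dpi after scaling to the array median (0.96). Calcr was well above background on 2 Ctrl arrays, 2 arrays of 1 dpi and 3 of 3 dpi and was not called. Ocstamp was 1.22 and 2.14 from Ctrl, the first being 0.81 without Ctrl replicate 1 and called in 14 of 21 alternatives. Of 9 monocyte markers 3 rose on each day, and Ly6c2, its brightest probe, was 0.62 and -0.02 from Ctrl. The part of these cells was not tested.

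Markers of stroma, endothelium and fat were counted in the same way. Of 14 stromal markers 10 rose at 1 dpi, 8 at 3 dpi and 6 between the days, Cxcl12 by 2.72 and 3.50 against Ctrl, and Lepr by 1.39 at 1 dpi but 0.40 in the deposited log2 table and 0.71 to 2.10 over its 5 probes. At 3 dpi Lepr was 0.42 from Ctrl and up to 4.07 on another probe. The log2 summed level of the stromal list was 5.57, 5.54 and 5.51 in Ctrl, 6.61, 6.52 and 6.58 at 1 dpi and between 6.96 and 7.08 at 3 dpi. Of 13 endothelial markers 5 rose at 1 dpi, 8 at 3 dpi and 1 between the days, Cdh5 by 1.74 and 2.40 against Ctrl. Of 9 adipocyte markers 3, 6 and 3 rose, and Adipoq was 0.75 from Ctrl at 1 dpi, under 2-fold, and rose by 4.23 at 3 dpi. Stromal cells make Gas6, and adipocytes and endothelium carry CD36, and the part of these cells in the levels of Gas6 and Cd36 was not tested.

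**Figure D5:**
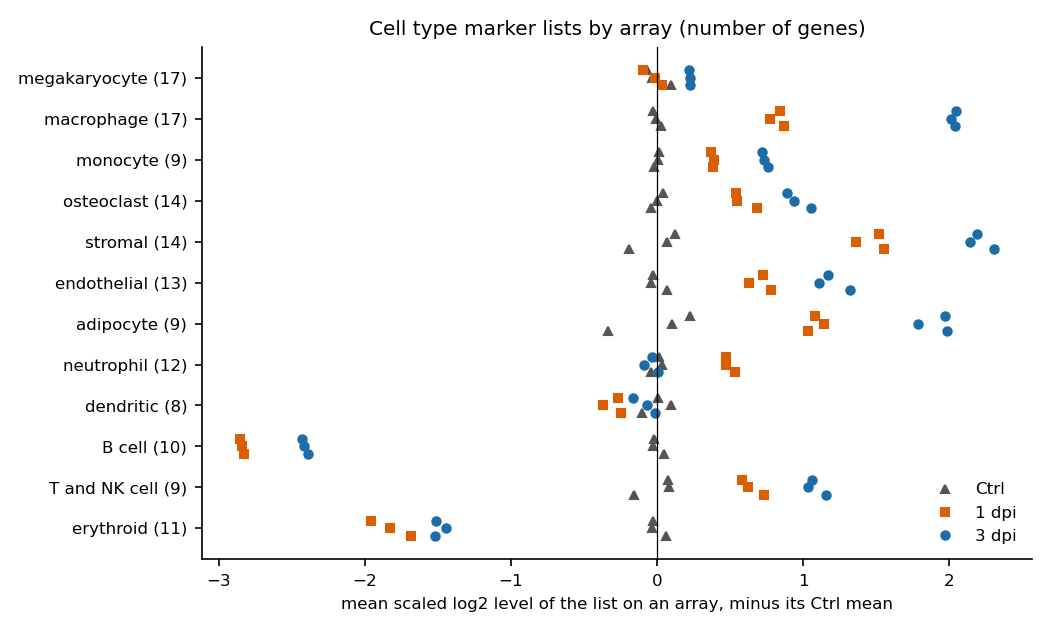
Mean scaled log2 level of each cell type marker list on each array, given as its distance from the Ctrl mean of the list. The macrophage, monocyte, osteoclast, stromal, endothelial, adipocyte and T and NK cell lists lie to the right of Ctrl at 1 dpi and further right at 3 dpi. The megakaryocyte list stays within 0.3 of Ctrl, and the B cell and erythroid lists lie to the left.

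The members were also set side by side by the sequence at their transcription start, since 9 of them were higher than Ctrl on both days. All 10 matched an entry in the RefSeq promoter windows (GRCm38.p6), each 300 bases from 250 before to 50 after the start, and 4 motifs were searched on both strands. The E-box CACGTG and the M-box TCATGTG, which MiT/TFE factors bind, were in the window of 0 members, beside 7.15% and 3.77% of all 32851 windows. GAGGAAGT, bound by the myeloid factor PU.1, was in 0 members beside 3.2%. TGANTCA, a loose form of the AP-1 motif with any base in the centre, was in 3 members, beside 7.81% of all windows. It stood in Gpnmb at 8 to 14 bases after the start, in Trem2 at -9 to -3 and in Cd68 at -149 to -143 and again at -24 to -18. The matched letters were TGACTCA in Gpnmb, TGAATCA in Trem2 and TGAGTCA in Cd68. The AP-1 consensus has C or G in the centre, which the Trem2 match lacks. Windows with that narrower motif were not counted. A match describes the letters alone and is no evidence of binding, and a window without a match says nothing about the factor.

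The bases just before the start are shown for these 3 genes because they carry TGANTCA or, in Gpnmb, lead up to it. Capitals mark TGANTCA, and each sequence runs 5′ to 3′ on the strand of the gene to the last base before the start. The stretches are chr6:49036398-49036517 (plus strand) for Gpnmb, chr17:48346281-48346400 (plus strand) for Trem2 and chr11:69666171-69666370 (minus strand) for Cd68.
Gpnmb: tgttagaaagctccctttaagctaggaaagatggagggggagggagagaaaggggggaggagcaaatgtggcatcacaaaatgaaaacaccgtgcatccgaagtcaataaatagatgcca
Trem2: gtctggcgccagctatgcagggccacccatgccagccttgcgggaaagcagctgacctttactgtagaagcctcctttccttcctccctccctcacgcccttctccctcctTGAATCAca
Cd68: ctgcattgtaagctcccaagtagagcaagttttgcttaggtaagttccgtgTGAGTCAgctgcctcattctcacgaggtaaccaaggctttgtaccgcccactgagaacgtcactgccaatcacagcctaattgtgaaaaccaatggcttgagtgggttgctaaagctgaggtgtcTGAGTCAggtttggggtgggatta
The Gpnmb stretch holds no capitals, since its match lies after the start. The Cd68 stretch holds both of its matches, and in that of Trem2 the match lies 2 bases before the end.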

How the data were processed

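The arrays were Agilent 1-colour arrays (design 074809), whereas the paper names the assay variously as RNA-seq, a microarray and an Affymetrix chip. Per the file headers, the authors used Agilent Feature Extraction 10.7.1.1, whose background-subtracted spot intensity was deposited with no scaling across them. A log2 table deposited by the authors for 21694 genes, made in a way not stated, had medians per array of 6.95 to 7.04 and was used as an alternative only.

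Of 62976 spots, 3671 were controls, and 59305 carried 56605 probes, of which 56585 were used and 20, with only outlier spots on an array, left out. RefSeq accessions (GRCm38.p6) named 32984 probes and the array file 23601. Spots of a probe were averaged, and a gene took its passing probe with the highest mean. A probe passed when every array of at least 1 group read it as well above background. Levels were log2 intensity minus the 75th percentile. limma 3.58.1 (R 4.3.3, with version 1.17.8 of data.table) fitted 1 mean per group to all 9 arrays, with Benjamini-Hochberg adjustment over 29410 genes. Comparisons against Ctrl share their arrays. Figures used matplotlib 3.10.9 in Python 3.11.15. The steps were tested on simulated data. Array number limits precision.

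Members and lists were chosen with earlier results of these data known. Named are the members, up to 3 called genes of largest change per pathway list and comparison, all MiT/TFE factors and Gpnmb partners, Tyro3, Tyrobp, Mfge8, Timd4, Adam10, Adam17, the 5 genes nearest to Gpnmb, and defining markers of the cell types. Alternatives covered scaling, background, filter, probe choice, test, slide, replicate block and left-out arrays.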

Additional observations from a re-analysis of the deposited data

Results flagged for a closer look

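The change against Ctrl differed between 3 and 1 dpi in limma at an adjusted p under 0.05 for 9 members, beside 44.6% of all genes. The change at 3 dpi minus that at 1 dpi, on the log2 scale, was 1.77 for Axl, 1.60 for Ctsk, 1.46 for Gas6, 1.43 for Mertk and 1.09 for Trem2. It was 0.77 for Gpnmb, 0.67 for Pros1 and 0.44 for Cd68, which differed by less than 2-fold, and -0.41 for Lgals3, the 1 member with the larger change at 1 dpi. The adjusted p of Lgals3 was 0.282 after scaling to the array median, 0.469 after quantile normalization, 0.58 after normexp and 0.528 in the deposited log2 table, and that of Cd68 was 0.0946 in the deposited log2 table. On their other probes Lgals3 differed by -0.07 (adjusted p over probes = 0.321) and Cd68 by 0.27 and 0.35 (adjusted p over probes = 0.0689 and 0.138).

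Among the named pathway genes called between the days, 3 had every array of 1 dpi on one side of all Ctrl arrays and every array of 3 dpi on the other. The difference was 3.05 for the phosphatidylserine receptor Timd4, 2.81 for the haemoglobin receptor Cd163 and 1.39 for the sheddase Adam9. After normexp with quantile normalization Timd4 differed by 1.72.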

How the results depend on the processing

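None of the 10 members changed direction in any comparison under the 21 alternatives, but many of these could not change it. No minimum fold, only the 2 groups compared, the replicate block and the methods' t-test use the same log2 fold changes. Both changes of the filter left the members' values as they were. Leaving out an array also leaves a comparison without its group unchanged. The same 5 members were called between 3 and 1 dpi in each, and with no minimum fold 9 were. Of the 20 member changes against Ctrl 19 were above 0 in every alternative. Of 210 member values on each day, 25 at 1 dpi and 20 at 3 dpi moved by more than 1 SD and 0 reversed. All genes called numbered 4465, 2587 and 2584 at 1 dpi, at 3 dpi and between the days. Normexp with quantile normalization gave 1667, 1147 and 1088, and no minimum fold gave 16410, 9400 and 13104. Without the filter on dim probes 4484 were called between the days. Slide as a block gave 3557, 2366 and 2810, and the methods' t-test 3348, 2205 and 2522. Leaving out each array in turn gave 3595 to 5387, 2359 to 2767 and 2264 to 2883, with 5 members called each time. The pathway lists held 85 calls over the comparisons, counting shared genes once, 85 to 90 with an array left out, 75 after normexp, 106 in the deposited table and 305 with no minimum fold. Of 89 calls of named genes 81 were kept after scaling to the array median, 86 after quantile normalization, 83 after normexp, 83 in the deposited table and 82 with the mean of all probes of a gene, and the cause of the losses was not tested. Deviations of same-numbered arrays correlated at -0.107 to 0.128, so replicate numbers were not taken as pairs, and a replicate block gave 4270, 2497 and 2490. Signal over background limits the fold of Gpnmb and of other genes dim in a group, such as Timd4, Scara3 and Msr1.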

Other observations

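Lymphoid, erythroid and granulocyte markers were measured in the same preparations. Of 10 B cell markers 9 fell at 1 dpi and 8 at 3 dpi, with median log2 fold changes of -3.29 and -2.70, and 4 rose between the days. Of 11 erythroid markers 1 rose and 7 fell at 1 dpi, 8 fell at 3 dpi, and 5 rose and 3 fell between the days. The log2 of the summed level of the erythroid list went the other way at 1 dpi, with 7.14, 6.94 and 7.01 in Ctrl, 8.18, 7.90 and 7.86 at 1 dpi and 5.56, 5.59 and 5.50 at 3 dpi.

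Of 12 neutrophil markers 2 rose at 1 dpi and none was called at 3 dpi or between the days in limma, where 3 and 11 had an unadjusted p under 0.05, Elane being 0.18 and -0.06 from Ctrl and Ly6g -0.03 and -0.64. Of 8 dendritic cell markers 2 rose and 2 fell at 1 dpi, 1 rose and 1 fell at 3 dpi and 2 rose between the days, and Zbtb46 was 0.76 and 0.28 from Ctrl, with 1.40 at 3 dpi on another probe. Of 9 T and NK cell markers 2 rose at 1 dpi, 4 at 3 dpi and 3 between the days, and Cd3e was 0.87 and 0.41 from Ctrl, and 1.22 and 0.05 on its other probe. Between the days 2 of 9 monocyte markers rose and 1 fell.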
